A study of Homo sapiens with 4 samples.

Results

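The interferon-stimulated genes examined here were 39 of the 19820 protein-coding genes of the annotation, taken as a fixed list of well-known targets of interferon. A peak was linked to a gene when its centre lay within 10 kb of any start site of the gene's protein-coding transcripts. A promoter peak had its centre from 1 kb upstream to 100 bp downstream of a start site, and every other linked peak was treated separately. The remaining 19781 protein-coding genes served as the background.

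Type I interferons are secreted when a cell senses foreign nucleic acid. Interferons signal through cell surface receptors and Janus kinases. Type I interferons lead to ISGF3, a complex that contains STAT2 and IRF9 and binds the interferon-stimulated response element (ISRE) in the promoters of its targets. Type II interferon acts at the gamma-activated site (GAS). The target genes encode sensors, transcription factors, the ubiquitin-like modifier ISG15 with its enzymes, and proteins that block translation, degrade RNA or trap virus particles. Induction of interferon-stimulated genes has been described during retinoic acid treatment of promyelocytic leukemia cells, which gives the comparison of ATRA with vehicle its interest for this gene group.

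The data were ATAC-seq peak lists, in which open chromatin is marked by the cuts of the Tn5 transposase. All 4 libraries came from HL-60, an established line from a patient with promyelocytic leukemia that matures along the granulocyte lineage under all-trans retinoic acid (ATRA). The 2 ATRA libraries were from cells kept in 1 µM ATRA for 4 days, and the 2 control libraries were from cells given ethanol, the solvent of ATRA, over the same time. The labels name no interferon treatment and no engineered genetic change in this single line, and do not say whether replicates were separate cultures, though the study describes its ATAC-seq replicates as biologically independent. The lists held 43494 (ATRA replicate 1), 63541 (ATRA replicate 2), 42081 (control replicate 1) and 45903 (control replicate 2) peaks with median widths of 328, 416, 325 and 291 bp, so that ATRA replicate 2 stood apart with more and wider peaks. Read depth was not known from the files. Of 6 markers of myeloid cells, 2 (SPI1 and CEBPE) had a promoter peak in all 4 lists, CD33, MPO and CSF3R had one in 3, 2 and 1 lists, and AZU1 had one in none. Of the granulocyte maturation genes, ITGAM had one in all 4 lists and CD38 in none. Of 6 markers of other lineages, 5 had none, the exception being COL1A1 with all 4.

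Each peak was described by the percentile of its score within its own list, and a gene by its promoter peak with the highest percentile. A level here is therefore a rank among the peaks of one library, not an amount of open chromatin or of RNA. With 2 libraries against 2, the smallest two-sided exact permutation p is 0.333, so no member was tested on its own, and groups were compared by whether their values overlapped. Differences are given as the mean of the ATRA percentiles minus the mean of the control percentiles, in percentile points.

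The sequence that links many of these genes is the ISRE, searched on both strands as GAAA, any 2 bases and GAAA again. The search covered 250 bp upstream to 50 bp downstream of the canonical start site of each gene. It was found in 22 of the 39 members (56.4%) and in 625 of 19502 other genes (3.20%) with a canonical start site. The 6 promoters below were chosen because they carry main observations on openness. HERC5, IFIT3 and IFI6 ranked higher in ATRA, IFIT1 ranked lower, and IFI44L and IFI27 had no promoter peak in any list. The stretches are in gene direction on the hg19 build, stop before any annotated untranslated region, and show ISRE matches in capitals (a match on the opposite strand reads TTTC, any 2 bases, TTTC).
HERC5, chr4:89378120-89378269, plus strand: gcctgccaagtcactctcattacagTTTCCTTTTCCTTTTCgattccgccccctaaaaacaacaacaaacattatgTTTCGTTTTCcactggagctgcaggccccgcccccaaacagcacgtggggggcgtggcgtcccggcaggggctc
IFIT1, chr10:91152230-91152302, plus strand: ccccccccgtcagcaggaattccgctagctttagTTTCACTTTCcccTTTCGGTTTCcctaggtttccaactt
IFIT3, chr10:91087584-91087697, plus strand: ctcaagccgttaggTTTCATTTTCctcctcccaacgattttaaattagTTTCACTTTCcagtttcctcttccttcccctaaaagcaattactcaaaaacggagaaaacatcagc
IFI6, chr1:27998724-27998873, minus strand: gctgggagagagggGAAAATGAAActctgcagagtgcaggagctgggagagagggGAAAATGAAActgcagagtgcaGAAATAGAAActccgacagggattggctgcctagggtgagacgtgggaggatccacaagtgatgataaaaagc
IFI44L, chr1:79085953-79086066, plus strand: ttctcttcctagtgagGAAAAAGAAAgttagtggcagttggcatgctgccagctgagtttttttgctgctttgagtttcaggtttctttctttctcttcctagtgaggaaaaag
IFI27, chr14:94576961-94577023, plus strand: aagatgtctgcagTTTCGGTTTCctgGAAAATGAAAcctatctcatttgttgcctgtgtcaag
The HERC5 stretch holds 3 matches, of which the pair whose first bases lie at -125 and -119 bp from the start site shares bases. IFIT1 and IFIT3 each hold 2 matches on the opposite strand, and IFI6 holds 3 on the gene's own strand. The stretch of IFI44L holds 1 of the 2 matches of its promoter. IFI27, with no promoter peak in any list, also holds 2 matches.

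Other motifs were less frequent. The GAS sequence TTCNNNGAA occurred in the windows of 9 members (23.1%; 6.38% of other genes), namely DDX60, IRF1, IRF7, IRF9, OAS1, BST2, TRIM22, IFI27 and IFI35. The ETS-IRF composite (GGAA, any 2 bases, GAAA) occurred in 4 members (10.3%; 2.56%), and the PU.1 sequence GAGGAAGT, bound by the master regulator of myeloid cells, in 3 (7.69%; 2.53%), which were OAS3, SAMD9L and PML. An ISRE followed by a C, the fuller form of the element, was found in 19 members (48.7%) and in 0.682% of other genes. Letters of the ISRE read backwards, a control for base composition, were found in 4 members (10.3%) and in 2.49% of other genes. These matches describe the reference sequence and do not show binding.

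A sizeable share of the interferon-stimulated promoters was open with and without ATRA. A promoter peak was present in all 4 lists for 18 of 39 members (46.2%), compared with 37.8% of other protein-coding genes. No list held one for 11 members (28.2%), compared with 44.6% of other genes. Another 10 members (25.6%; 17.5% of other genes) had a promoter peak in 1 to 3 lists. Presence in a single library was the most common of these states, with 5 members (12.8%; 4.13% of other genes). For other genes the most common of these states was 3 lists (8.26%; 7.69% of members). By library, 22, 25, 21 and 22 members had a promoter peak in ATRA replicates 1 and 2 and control replicates 1 and 2. In the same order these were 56.4%, 64.1%, 53.8% and 56.4% of members, beside 49.2%, 49.8%, 47.4% and 44.1% of other genes. When peaks scoring under 100 were left out, 10 members (25.6%) were open in all 4 lists, compared with 27.1% of other genes. The members' share was then no longer above that of other genes.

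The promoters that were open had peaks of middling rank. The median member percentile was 66.9 and 79.8 in the ATRA libraries and 74.3 and 65.4 in the control libraries. Other genes with a promoter peak had medians of 84.1, 85.5, 82.5 and 78.5 in the same order. In each of the 4 libraries the members' median was below that of other genes. Member promoters were also poorer in CpG. The ratio of observed to expected CpG had a median of 0.46 over the 18 members open in all 4 lists, against 0.86 over 7461 other genes open in all 4, and of 0.29 over the 11 closed members, against 0.51 over 8593 closed other genes. The values of individual members spread widely, from 0.00 for IFI44, IFI44L and SAMD9L to 1.03 for USP18.

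**Figure D1:**
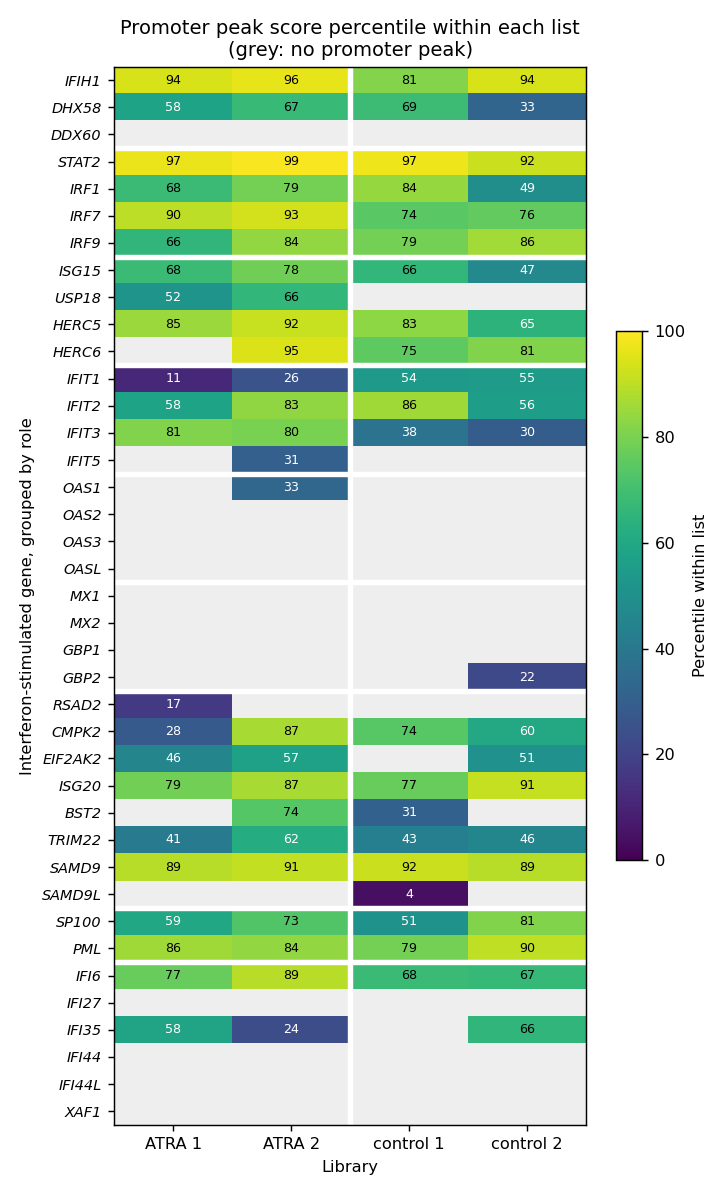
Percentile of the strongest promoter peak within each peak list (colour and printed number) for the 39 members in rows, grouped by role, and the 4 libraries in columns; grey marks no promoter peak. The signalling genes are filled across all 4 columns, while OAS2, OAS3, OASL, MX1, MX2 and GBP1 are grey throughout.

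Openness varied between the roles of the genes, in groups of only 2 to 8 members. All 4 signalling genes and both nuclear body genes had a promoter peak in all 4 lists, as did 3 of 4 IFIT genes, 2 of 3 sensors, 2 of 4 genes of the ISG15 system, 4 of 8 other antiviral effectors and 1 of the 6 remaining interferon-inducible genes. None of the 4 OAS genes and none of the 4 GTPase genes did. The share over all other genes was 37.8%, and differences between groups this small were not tested. The GTPase gene MX2 counted as closed although a region of 4 lists reached its start site, as described below. The 11 members with no promoter peak were DDX60, a helicase-like antiviral protein; OAS2, OAS3 and OASL, of the oligoadenylate synthetase family that activates RNase L; MX1, MX2 and GBP1, dynamin-like or guanylate-binding GTPases; and IFI27, IFI44, IFI44L and XAF1. Of these, OAS2, OAS3, OASL, MX1, GBP1, IFI27 and XAF1 had no peak of any kind within 10 kb, which makes 7 members without a linked peak. The share of other genes without a linked peak is not given here, so 7 cannot be called many or few.

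Having an ISRE did not separate open from closed members. Of the 22 members with one, 10 (45.5%) were open in all 4 lists and 7 (31.8%) in none, the latter being DDX60, OAS2, OAS3, GBP1, IFI27, IFI44 and IFI44L. Of the 17 members without one, 8 (47.1%) were open in all 4 lists and 4 (23.5%) in none. Among other genes with an ISRE, 29.9% were open in all 4 lists and 50.9% in none. Without an ISRE, the shares of other genes were 38.5% and 43.8%. Within the peaks themselves, the central 200 bp held an ISRE in 10 of 28 promoter regions of members (35.7%), compared with 1.86% of 11348 promoter regions of other genes. The share was 2 of 38 (5.26%) in the other regions near members and 3.17% of 15477 such regions near other genes.

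**Figure D2:**
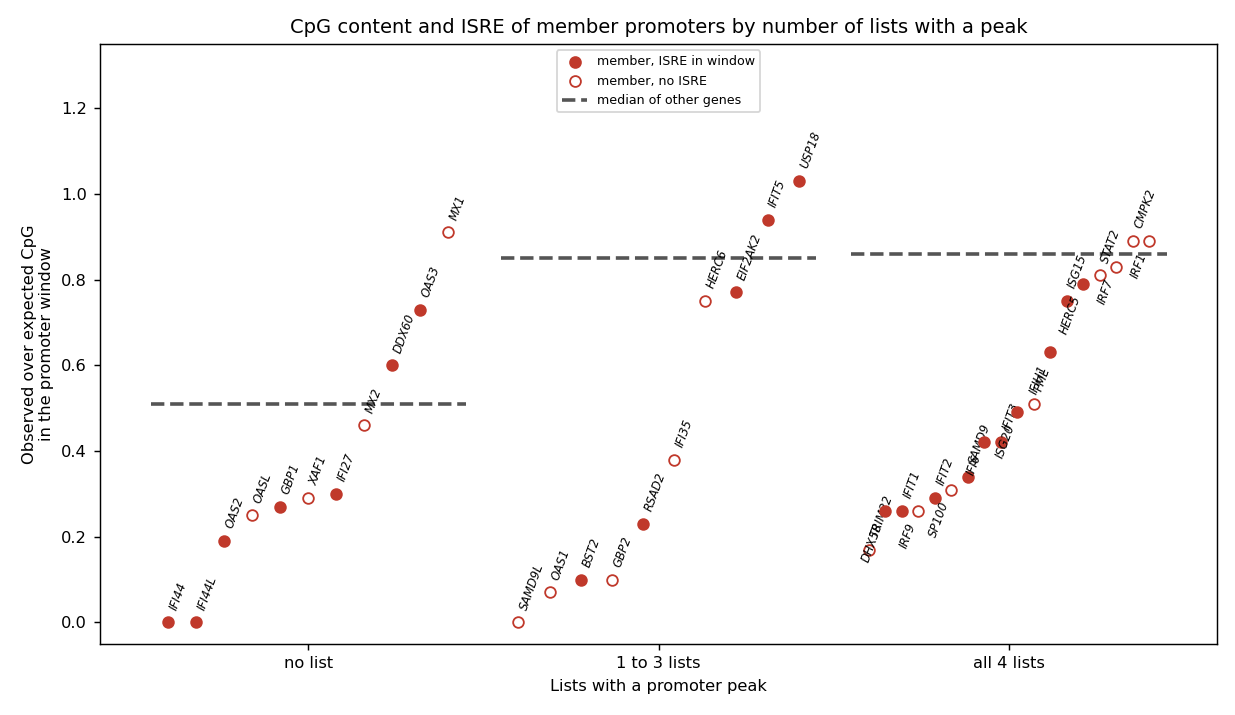
Observed over expected CpG in the window from 250 bp upstream to 50 bp downstream of the canonical start site (vertical axis, a ratio) for each member, by the number of lists with a promoter peak; filled points hold an ISRE and the dashed line is the median of other genes in the same class (0.51, 0.85 and 0.86). Filled points occur in all 3 classes, and most members lie below the dashed line of their class.

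Next, the ATRA and control lists were compared at the promoters. A promoter peak appeared in both ATRA lists and no control list for 1 member (2.56%), USP18, compared with 2.11% of other genes. The opposite pattern occurred for 0 members, compared with 0.693% of other genes. Counting a gene with no peak below every gene with one, the percentile was higher in both ATRA lists than in both control lists for 7 members (17.9%; 20.1% of other genes) and lower for 1 (2.56%; 3.97%). Each of these shares was near its background. The higher members were IFIH1, IRF7, ISG15, USP18, HERC5, IFIT3 and IFI6, and the lower member was IFIT1. Among genes with a promoter peak in all 4 lists, 6 of 18 members were higher (33.3%) and 1 was lower (5.56%). The shares of other genes in that class were 39.5% and 6.79%. Without ATRA replicate 1, ATRA replicate 2 or control replicate 2, there were 3, 2 and 3 members with an ATRA-only promoter peak (7.69%, 5.13% and 7.69%), beside 3.87%, 3.15% and 3.57% of other genes. Without control replicate 1 there was 1 (2.56%), beside 6.41% of other genes. Without ATRA replicate 2, control replicate 1 or control replicate 2, there were 5, 7 and 6 lower members (12.8%, 17.9% and 15.4%), beside 10.6%, 8.52% and 11.8% of other genes. Without ATRA replicate 1 there was 1 lower member (2.56%), beside 6.54% of other genes. Of the 22 members with an ISRE, 6 (27.3%) were higher, compared with 1 of the 17 without one (5.88%). The corresponding shares of other genes were 18.4% and 20.3%. For members open in all 4 lists, the median difference was 9.69 points with an ISRE (n = 10) and 1.77 without one (n = 8), against 3.40 and 3.61 over other genes.

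Over the 18 members with a peak in all 4 lists, the difference in percentile had a median of 5.17 points and ran from -35.9 to 46.6. The median over 7480 other genes was 3.59. The difference was above 0 for 12 members (66.7%) and for 74.9% of other genes. Replicates of members were further apart than those of other genes. Their median absolute gap was 9.9 points in ATRA and 11.9 in control, against 3.6 and 6.3. ATRA replicate 2, the library with the longest list, was above replicate 1 for 16 of the 18 members and for 4797 of 7480 other genes. The median of ATRA replicate 2 minus ATRA replicate 1 was 9.9 points over members and 1.1 over other genes. Leaving out ATRA replicate 1 raised the median to 12.52 (4.79 over other genes) and the number of higher members to 15 (38.5%; 32.5% of other genes). Leaving out ATRA replicate 2 lowered the median to 1.26 (2.67 over other genes). Leaving out control replicate 1 or control replicate 2 gave 12 higher members (30.8%; 31.0% and 24.8% of other genes). When percentiles were taken among promoter peaks only, the median turned to -1.50 (2.39 over other genes), and IFIH1 and ISG15 were no longer among the higher members. All 7 higher members remained so with equal numbers of peaks per list (17.9%), while the share of other genes fell from 20.1% to 13.2%. The median difference was then 3.38 points over members and 1.68 over other genes, so list length moved the values of both.

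**Figure D3:**
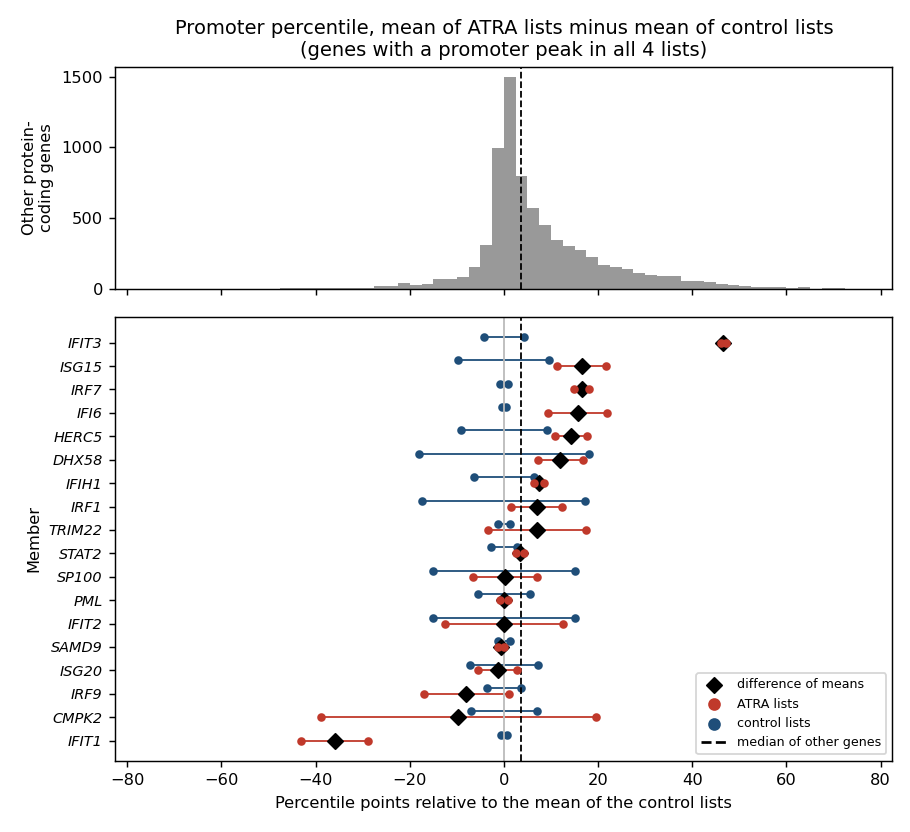
Top, number of other protein-coding genes (7480 with a promoter peak in all 4 lists) by the difference in percentile, ATRA mean minus control mean; bottom, the 18 such members, with each library as a small point relative to the control mean and the difference of means as a diamond. IFIT3 lies at 46.6 and IFIT1 at -35.9 points, with most other members within the spread of their replicates; the dashed line is the median of other genes, 3.59.

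Among the sensors of viral RNA, IFIH1 (MDA5), which recognises long double-stranded RNA, had promoter percentiles of 94.0 and 96.1 in ATRA and of 81.3 and 93.9 in control. The groups did not overlap, but control replicate 2 lay only just under the lower ATRA library, and the difference was 7.4 points. Its window holds 3 ISRE matches. DHX58 (LGP2), a regulator of that sensor, was open in all 4 lists with values that overlapped between the groups. DDX60 had only low-ranked regions near an alternative start site.

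In the signalling group, IRF7, the transcription factor that amplifies type I interferon production, ranked at 89.9 and 93.2 in ATRA and at 74.3 and 75.9 in control. Both ATRA libraries lay well above both control libraries, and the difference was 16.5 points, larger than the gap within either group. IRF9, the DNA-binding subunit of ISGF3, and STAT2, its partner, were open throughout with overlapping groups. STAT2 ranked high in every list, between 92.0 and 99.0. IRF1, an early factor of the interferon-gamma response, had separate peaks at its canonical start site and at an alternative one upstream. The canonical region was called in 3 lists, at 68.2, 60.7 and 73.2, and was not called in control replicate 2. The upstream region was called in all 4.

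The ISG15 system attaches a ubiquitin-like protein to other proteins. ISG15 itself ranked at 68.1 and 78.4 in ATRA and at 66.4 and 47.1 in control. The ATRA values were above both control values by a narrow margin in replicate 1, with a difference of 16.5 points. HERC5, the ligase that joins ISG15 to its substrates, ranked at 84.8 and 91.5 in ATRA and at 83.0 and 64.8 in control, a difference of 14.2. Here too the lower ATRA value was close to the higher control value.

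USP18 removes ISG15 from proteins and dampens signalling at the type I interferon receptor. Its promoter region was called at percentiles 51.7 and 66.4 in the ATRA lists and in neither control list. A further USP18 region in an intron, chr22:18639791-18640249, with its centre 7083 bp downstream of the start site, was called at 69.6 and 54.4 in ATRA and in neither control list. The gene thus had ATRA-only peaks at both places, and the sole control peak nearby was a low-ranked one at 20.7 in control replicate 1. HERC6, a relative of HERC5, had a promoter peak at 94.6 in ATRA replicate 2 and at 75.3 and 81.0 in control. In ATRA replicate 1 a peak of percentile 92.0 overlapped the promoter but its centre fell outside the window. Counted by overlap, HERC6 was higher in both ATRA libraries.

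The IFIT genes encode proteins that bind viral RNA and lie side by side on chromosome 10, and all 4 hold an ISRE. IFIT3 had the largest difference of the 18 members, with percentiles of 80.9 and 79.8 in ATRA and of 38.0 and 29.6 in control. The groups were far apart and the replicates close, giving a difference of 46.6 points. The peaks differed in extent as well. In ATRA they ran from -328 to 466 bp and from -372 to 442 bp about the start site, whereas control replicate 1 had separate peaks from -172 to 77 bp (percentile 9.1) and from 89 to 420 bp, and control replicate 2 had a single peak from 160 to 396 bp. The control values of 38.0 and 29.6 belong to the downstream peaks, which counted as promoter peaks through a further annotated start site. The ISRE pair lay inside the peaks of both ATRA libraries and of control replicate 1, and outside that of control replicate 2.

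IFIT1 went the other way at its start site, with percentiles of 11.4 and 25.7 in ATRA and of 54.0 and 55.1 in control, a difference of -35.9 points. Both ATRA libraries were below both control libraries. The peak was weak in ATRA, and when peaks scoring under 100 were left out IFIT1 was no longer called lower. A further IFIT1 region, chr10:91152679-91153178, centred 548 bp downstream, was called at 65.4 and 51.5 in ATRA and in neither control list. The peak at the start site had nearly the same position in all 4 lists, and the ATRA libraries had this additional peak beside it. IFIT2 was open in all 4 lists with wide replicate gaps, at 58.2 and 83.3 in ATRA and 85.9 and 55.6 in control. IFIT5 had a promoter peak at 30.7 in ATRA replicate 2 alone.

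**Figure D4:**
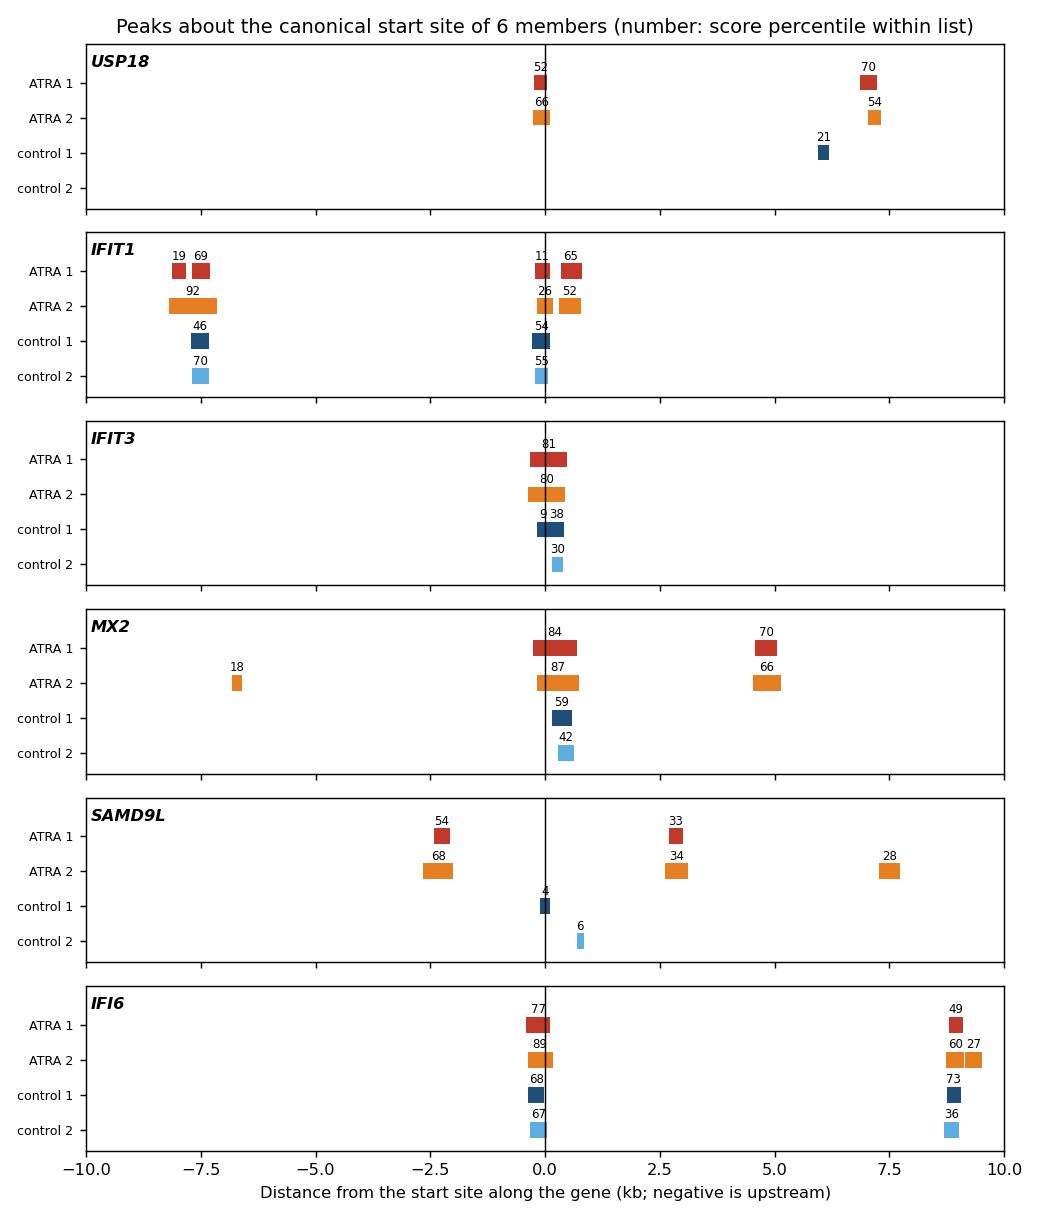
Peaks within 10 kb of the canonical start site of 6 members, by distance along the gene (kb, negative is upstream), with 1 row per library and the score percentile above each peak. At IFIT3 and MX2 the ATRA peaks span the start site and the control peaks are narrower and mostly downstream, and USP18 has peaks at its start site in ATRA only.

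The OAS and GTPase genes had few promoter peaks. OAS1, which makes the activator of RNase L, had a promoter peak at 33.2 in ATRA replicate 2 alone. GBP2, a guanylate-binding protein of the interferon-gamma response, had one at 21.9 in control replicate 2 alone. MX2, an inhibitor of the nuclear entry of viral genomes, counted as closed because its peaks were centred beyond the promoter window. A region of 4 lists at chr21:42733689-42734682 nevertheless reached its start site, at percentiles of 83.5 and 86.7 in ATRA and 58.7 and 41.9 in control. The ATRA peaks covered the start site, from -265 to 696 bp and from -182 to 728 bp. The control peaks began downstream of it, from 142 to 589 bp and from 283 to 634 bp. Counted by overlap with the promoter window, MX2 was a second member with a promoter peak in ATRA only. A second MX2 region, within an exon at chr21:42738479-42739090, was called at 69.9 and 65.6 in ATRA and in neither control list.

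Among the other effectors, RSAD2 (viperin), a radical enzyme that makes an antiviral nucleotide, and CMPK2, the neighbouring kinase that supplies its substrate, share a region. CMPK2 was open in all 4 lists, at 28.4 and 86.8 in ATRA and 74.2 and 60.3 in control, with the ATRA libraries on both sides of the control libraries. RSAD2 had a promoter peak at 16.8 in ATRA replicate 1 alone, through an alternative start site in that shared region. Counted by overlap with the promoter window, RSAD2 had one in all 4 lists, with overlapping groups. Its values were then 16.8 and 86.8 in ATRA and 74.2 and 60.3 in control. With a window of 500 bp to each side, RSAD2 was called lower. An RSAD2 intronic region centred 2785 bp downstream of the start site was called at 22.4 in ATRA replicate 1, not in ATRA replicate 2, and at 88.1 and 78.5 in control. It ranked higher in both control libraries than in the ATRA library that had it.

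EIF2AK2 (PKR), the kinase that halts translation on sensing double-stranded RNA, had a promoter peak at 45.7 and 57.3 in ATRA, none in control replicate 1 and one at 50.7 in control replicate 2. BST2 (tetherin), which holds budding virions at the cell surface, had one at 73.5 in ATRA replicate 2 and at 31.1 in control replicate 1. A peak of ATRA replicate 1 at 67.4 overlapped the BST2 promoter with its centre outside the window, and by overlap BST2 was higher in both ATRA libraries. ISG20, an RNA exonuclease, TRIM22, an antiviral ubiquitin ligase, and SAMD9, a growth and antiviral factor, were open in all 4 lists with overlapping groups. SAMD9 varied little, between 89.4 and 91.9 in every library.

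SAMD9L, the neighbour and paralog of SAMD9, showed a different picture. Its promoter peak was called in control replicate 1 alone, at percentile 4.2. Regions on either side of the start site were called in ATRA only. The intergenic one upstream, chr7:92779696-92780349, was called at 53.9 and 68.0, and the one downstream, chr7:92774577-92775088, at 33.1 and 34.0, both in neither control list. The upstream region held a GAS match within 200 bp about its centre and no ISRE.

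The nuclear body genes PML and SP100 were open at their promoters in all 4 lists with overlapping groups. SP100, a structural protein of PML bodies, had an intronic region in ATRA only, chr2:231321743-231322439, at 70.9 and 87.8, and another in control only, chr2:231323881-231324324, at 76.4 and 80.9. These lie next to each other in the gene, so that SP100 counted in both directions. The other nuclear body gene, PML, was linked to a control-only region at chr15:74277414-74277701, at 69.6 and 42.0, which lies in an intron of the neighbouring gene STOML1.

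Of the remaining interferon-inducible genes, IFI6, an inhibitor of apoptosis, was the only one open in all 4 lists. It ranked at 76.9 and 89.4 in ATRA and at 68.0 and 67.1 in control. Both ATRA libraries were above both control libraries, and the difference was 15.7 points. IFI35, a leucine zipper protein, had a promoter peak at 58.4 and 23.8 in ATRA, none in control replicate 1 and one at 65.9 in control replicate 2. IFI44L and IFI44 lacked a promoter peak, but IFI44L had a region centred at -2694 bp from the start site in all 4 lists, at 67.7 and 92.9 in ATRA and 77.8 and 85.5 in control.

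Beyond the promoters, 23 members (59.0%; 58.3% of other genes) had a linked region. These comprised 38 distinct regions, of which 6 were in all 4 lists, 7 in 3, 14 in 2 and 11 in 1. Of the regions in a single list, 5 were in ATRA replicate 2, 0 in ATRA replicate 1, 3 in control replicate 1 and 3 in control replicate 2. The matching split of regions near other genes is not given here. A region in both ATRA lists and no control list was linked to 5 members (12.8%; 9.46% of other genes), namely USP18, IFIT1, MX2, SAMD9L and SP100, through 6 regions. A region in both control lists and no ATRA list was linked to 2 members (5.13%; 3.25%), SP100 and PML. These shares were near their background. None of these 8 regions held an ISRE. Without ATRA replicate 1 there were 8 members with an ATRA-only region (24.2% of other genes), and without ATRA replicate 2, control replicate 1 or control replicate 2 there were 5 with a control-only region (12.8%; 8.41%, 8.84% and 7.99% of other genes).

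A list of 28 other genes of the interferon pathway was set beside the targets. A promoter peak was present in all 4 lists for 11 of them (37.8% of other genes) and in none for 4 (44.6%). The 4 were IRF8, MYD88 and the ligand genes IFNB1 and IFNG. The percentile was higher in both ATRA lists than in both control lists for 14 (50.0%) and lower for 0 (3.97% of other genes). The median difference over those open in all 4 lists was 5.40 points, against 3.59 over other genes. The list's higher share was above the 20.1% of other genes, and no test was made of it. That 20.1% is a share of all other genes, including those with no promoter peak, which cannot rank higher. Among other genes open in all 4 lists, 39.5% were higher. The pathway list included receptor subunits, kinases and factors upstream of the targets. IFNGR2, a subunit of the interferon-gamma receptor, had a promoter peak at 67.1 and 61.1 in ATRA and in neither control list. TICAM1, the adaptor of TLR3, had one at 38.6 and 8.8 in ATRA and in neither control list. IRF3, the factor that starts interferon production, ranked at 67.0 and 85.7 in ATRA and at 34.8 and 47.6 in control, a difference of 35.1 points with no overlap.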

How the data were processed

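The input was 4 lists of ATAC-seq peaks from HL-60 cells (ATRA and control, 2 replicates each, grouped by title). The submitters' processing notes name cutadapt, Bowtie2, MACS2 and MACS with hg19. The authors called peaks for each library separately with default settings. A Tn5 shift, duplicate removal and a blacklist filter are not given in the sources used here. The deposited score of each peak (unit score, from 50 to 3100, scale not stated) was used only as a percentile within its list. The lists hold no read counts, so depth is unknown, and a deeper library can yield more and wider peaks. Start sites (78702) were from GENCODE release 44 lifted to GRCh37, and sequences were read from that genome. Coordinates are 1-based. Regions were merged peaks of the 4 lists. The members and the gene lists were chosen with earlier results of these data known. Values in every library were given for members with a group-specific peak or region, for the 6 largest differences among members open in all 4 lists, and for members with a promoter peak in 1 to 3 lists. Further members named with values (among them SAMD9, STAT2, IFIT2, CMPK2, IFI44L and the pathway genes) were chosen after their values were seen. In the pathway list, 3 symbols were updated to the annotation. Some listed genes and a promoter sequence are not reported here. No set test was run. Alternatives varied the score minimum, list length, window, start sites, distance, overlap and libraries. Scripts were tested on simulated data. Python 3.11.15, numpy 2.4.6, pandas 2.3.3, pysam 0.24.0, samtools 1.23.1 and matplotlib 3.10.9 were used.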

Additional observations from a re-analysis of the deposited data

How the results depend on the processing

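Most counts of members were small, so a change of 1 gene moved them; percentages in parentheses are the shares of other genes under the same setting. With scores of at least 100, 10 members, or 25.6% of members, were open in all 4 lists (27.1%). At that minimum, 2 had an ATRA-only promoter peak (3.67%) and 0 ranked lower (2.02%). Overlap in place of the peak centre gave 2 ATRA-only members (2.19%). Canonical start sites alone gave 1 control-only member (0.892%), 2 lower members (3.87%) and 1 with a control-only region (2.52%). Lower members numbered 2 with equal list lengths (6.30%), with a window of 500 bp to each side (3.51%) and with percentiles among promoter peaks (6.84%), the setting that turned the median difference to -1.50. Within 50 kb, 13 members had an ATRA-only region (33.3% of members; 32.7%) and 5 a control-only region (12.8% of members; 12.5%), near the shares of other genes. Within 5 kb, 1 had a control-only region (1.92%). Where absence meant not in both libraries of the other group, these were 8 (17.9%) and 6 (8.77%). Reversed letters of the ISRE were found in 4 promoters (2.49%). Leaving out 1 library gave 1 to 3 ATRA-only promoters (3.15% to 6.41%), 0 to 1 control-only promoters (1.27% to 2.09%), 8 to 15 higher members (24.8% to 32.5%), 1 to 7 lower members (6.54% to 11.8%), 5 to 8 members with ATRA-only regions (13.7% to 24.2%), 3 to 5 with control-only regions (3.84% to 8.84%), and a median of 1.26 to 12.52 (1.61 to 4.79 over other genes). Leaving out a library also loosens each call, which then needs fewer lists.

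The replicate numbers are shared by the groups in the labels but no source pairs them, and deviations of same-numbered libraries correlated at 0.13 over 7498 genes. With the replicate block, 8 members were higher (20.5%; 25.5% of other genes) and 2 lower (5.13%; 6.19%), and the median was 5.17 (3.59 over other genes).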
